A study of Mus musculus with 9 samples.

Results

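The solute carrier genes, whose mouse symbols begin with Slc and a number, were described in non-epithelial cells of the mammary gland under calorie restriction (CR). Their members were chosen on measured levels, as the rows named Slc that reached at least 10 normalized counts in at least 4 of the 9 libraries. Of 180 such rows in a table of 11063 genes, 97 met this rule and 83 did not, and 38 of those 83 never reached 10 normalized counts in any library. The 97 members came from 33 numbered families. By family number, 92 of them were classed as carriers, and 5 that carry an Slc symbol were classed as no carriers. Slc3a2, a heavy chain that brings carriers to the cell surface, was counted in the amino acid class by its family number. The #4 mammary glands were taken from FVB/N females that were 6 weeks old at the start, of which 4 were fed ad libitum (Control 2 to 5) and 5 were kept under CR for 8 weeks (CR 1 to 5), with 1 mouse per library. According to the labels the CR mice were given 65% of what the ad libitum-fed mice had eaten the day before, whereas the methods of the study give a somewhat larger share. The cells had been depleted of lineage-marked cells on magnetic beads and sorted as CD24-negative and CD49f-negative, and 15000 cells of a mouse gave the RNA, of which 30 ng entered a bulk form of MARS-Seq. In this method a molecule is tagged near its 3′ end and counted a single time, whatever the number of its PCR copies.

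Solute carriers are membrane proteins that move small molecules across the plasma membrane and the membranes of organelles. Some let a solute run down its gradient, and others couple it to the movement of sodium, protons or a second solute. The numbered families differ in what they carry, so that sugars, amino acids, inorganic ions, zinc and iron, nucleosides and the metabolites that enter mitochondria each have families of their own. In stromal and immune cells they supply fuel and building blocks and set cell volume, pH and the content of lysosomes and vesicles.

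The libraries differed in depth with the diet. Whole counts recovered from the deposited normalized counts ranged from 382877 to 817030 per ad libitum library and from 785301 to 1485963 per CR library, so a member at 10 normalized counts rested on few molecules in the shallow ad libitum libraries. A gene listed at 0 could still have had up to 3 counts, a limit of 1.55 (deepest library) to 5.85 normalized counts (shallowest library) for counting error alone. Markers of the cells a non-epithelial fraction can hold also differed. The 20 fibroblast markers summed to 10650 to 19122 normalized counts in ad libitum libraries and 16913 to 23186 in CR libraries, although fibroblasts were a target of the depletion. Of these 20, all tested, 6 were higher in CR and 1, Thy1, was lower (limma, -1.48, adjusted p = 0.000346), and 13 were not called. Of 18 T cell markers, 13 were in the table and 12 were tested, and all 12 were lower in CR, with sums of 2158, 2295, 2897 and 1691 normalized counts in Control 2 to 5 and of 111 to 227 in the CR libraries. Of 7 mast cell markers, 6 were in the table and 4 were tested, and all 4 were lower in CR, with sums of 345 to 630 against 29.1 to 133. Of 14 macrophage and monocyte markers, 11 were in the table, 5 were tested and 2 were lower in CR, and their sums overlapped (174 to 433 against 72.0 to 359). The 3 B cell markers in the table, of 7, summed to 29.2 to 58.6 against 0.8 to 10.3, and the 5 NK and cytotoxic markers, of 9, to 91.4 to 276 against 10.3 to 26.7. The 8 pericyte and smooth muscle markers had overlapping sums, with medians of 213 and 331, and 1 of the 4 tested was higher. Of 8 endothelial markers, 7 were in the table and 3 were tested, 1 of them higher and 1 lower. Of 8 epithelial markers, 3 were in the table and summed to no more than 27.4 normalized counts in any library. No gene of the whole table was at 0 in all libraries, so a marker in it need only have been above 0 in some library. The listed markers absent from the table could not be assessed.

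Of the 97 members, 9 were higher and 6 were lower in CR by limma at an adjusted p of at most 0.05, and 82 were not called. The share called was 15.5%, beside 17.1% of all 6815 genes tested by the same rule. In the higher direction it was 9.28% of the members beside 7.98% of all genes, and in the lower direction 6.19% beside 9.14%. These shares lie near the background, so the counts are not a result about the members as a group. All 5 CR mice lay above all 4 ad libitum mice for 10 members (10.3%, beside 7.29% of all genes), and below them for 4 members (4.12%, beside 9.63%). The median log2 fold change, CR minus ad libitum, was 0.26 over the members and 0.07 over all genes tested, and 65 of the 97 members had a positive value. The share of positive values over all genes was not counted, so the sign counts here and in the classes below are a description. The calls within each class are to be read beside the same 7.98% higher and 9.14% lower of all genes. A pair of members, Slc12a7 and Slc17a9, met the level rule through the ad libitum mice alone, and another pair, Slc29a3 and Slc4a3, through the CR mice alone, so these counts and medians describe the members and are not evidence about them, and the calls of those genes are a description too. Slc2a4rg-ps met the rule with 4 ad libitum libraries and 1 CR library, and its call is likewise a description. The summed share of the members in all normalized counts was 0.737 to 0.836% of the ad libitum and 0.805 to 0.905% of the CR totals, and the groups overlapped. In these bulk samples, fewer cells of a type and less RNA per cell cannot be told apart.

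**Figure D1:**
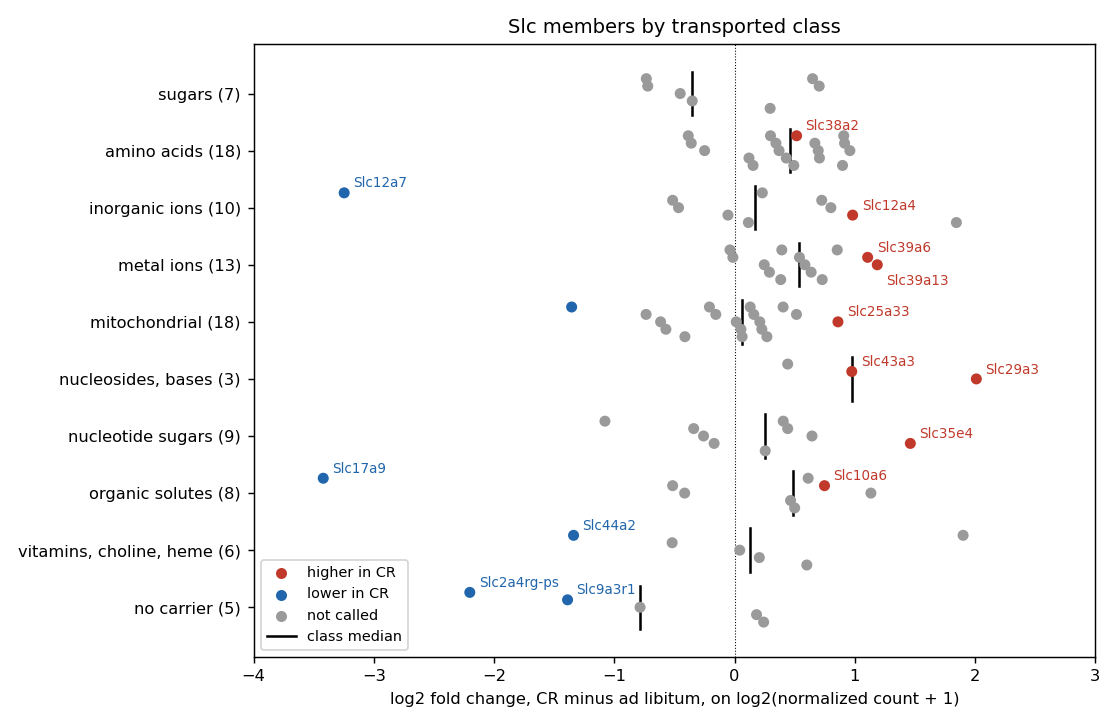
Log2 fold change (CR minus ad libitum, on log2(normalized count + 1)) of each of the 97 Slc members, in rows by transported class with the number of members in brackets. Points are genes, red and blue points passed limma at an adjusted p of at most 0.05, and the black bar is the class median. The metal ion carriers have 11 of 13 points right of 0, and the 2 points beyond -3 are Slc12a7 and Slc17a9.

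Many members lay near the lower end of what the libraries could measure. Their mean level over the 9 libraries ran from 8.23 to 745 normalized counts with a median of 26.2, and 39 of the 97 averaged under 20 while 12 averaged over 100. At the edge of the rule, Slc25a44, Slc45a4 and Slc4a1ap had 10, 10.3 and 10.3 normalized counts in the lowest of their 4 highest libraries, whereas Slc45a3, Slc35c1 and Slc24a5 had 9.87 each and were left out. In every one of the 9 libraries, 54 members reached 10 normalized counts. At least 30 normalized counts in at least 4 libraries were reached by 48 of the 97 members and by 3692 of the 6815 genes tested. Low levels were thus not particular to the members.

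Slc12a4, Slc12a7 and Slc10a6 are shown with the bases before their annotated start in RefSeq (GRCm38.p6), because they differ in direction and in what their promoters hold. Slc12a4 and Slc12a7 are K-Cl cotransporters of the same family that moved in opposite directions, and Slc10a6 was among the higher members with the most counts. Capitals mark matches, on either strand, to the GC box (GGGCGG) or the ETS core (CCGGAA). The window of Slc12a4 is chr8:105966150-105966365 on the minus strand, which leaves out the 34 bases next to the start. The window of Slc12a7 is chr13:73763410-73763659 on the plus strand and lies inside the gene, which spans chr13:73733052-73816754, so it precedes an internal start of the annotation. The window of Slc10a6 is chr5:103629404-103629653 on the minus strand and holds none of the 6 motifs searched.
Slc12a4: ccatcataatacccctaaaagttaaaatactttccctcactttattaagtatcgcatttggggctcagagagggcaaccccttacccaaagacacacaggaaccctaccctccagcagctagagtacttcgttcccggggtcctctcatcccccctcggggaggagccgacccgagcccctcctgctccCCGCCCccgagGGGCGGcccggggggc
Slc12a7: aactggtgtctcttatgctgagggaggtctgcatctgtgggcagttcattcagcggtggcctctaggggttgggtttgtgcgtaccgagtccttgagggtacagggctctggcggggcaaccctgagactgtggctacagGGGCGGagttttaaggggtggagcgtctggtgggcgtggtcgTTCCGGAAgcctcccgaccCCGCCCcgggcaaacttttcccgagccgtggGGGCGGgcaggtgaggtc
Slc10a6: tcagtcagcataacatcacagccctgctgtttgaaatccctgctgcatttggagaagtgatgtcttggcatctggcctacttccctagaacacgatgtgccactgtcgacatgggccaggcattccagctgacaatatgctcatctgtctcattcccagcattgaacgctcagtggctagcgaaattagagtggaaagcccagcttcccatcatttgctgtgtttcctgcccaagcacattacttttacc
The 6 motifs, counted on both strands in the 250 bases before the start, were read for the 74 members with a window, 10 of them called, and for 27025 mouse genes in all. The GC box stood in 49 of the 74 members (66.2%) and in 32.9% of all genes. The ETS core stood in 20 members (27%, beside 12.2%) and the E-box CACGTG in 10 members (13.5%, beside 6.05%). CCAAT stood in 23 members (31.1%, beside 34.5%), the AP-1 motif TGANTCA in 4 (5.41%, beside 6.87%) and the cyclic AMP response element TGACGTCA in 0 (beside 1.62%). The palindrome TTCCGGAA in Slc12a7 counts as 2 overlapping ETS matches. The median GC content of the windows was 62.0% in the members and 52% in all genes. Of the members higher in CR, 5 of 7 with a window held a GC box, and of the lower ones 3 of 3. The 27025 genes were taken whatever their level, whereas the members had met the level rule. The shares therefore compare unlike sets, and the windows of the tested genes alone were not read. The part of expression level in these shares was not tested. These letters are a description of the windows.

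The sugar carriers had no called member. Among 7 of them the median log2 fold change was -0.35, with 3 positive and 4 negative values. Slc2a1, the basal glucose transporter GLUT1 and the sugar carrier with the most counts, had 101, 177, 134 and 107 normalized counts in Control 2 to 5 and 164, 124, 295, 125.96 and 121 in CR 1 to 5. The groups overlapped, and CR 3 stood above the other 4 CR mice. Its means were 129.9 ± 34.7 (SD, n = 4) under ad libitum feeding and 166 ± 73.99 (SD, n = 5) under CR, and the limma estimate was 0.30 (95% interval -0.25 to 0.84, adjusted p = 0.479). Slc50a1, the mouse SWEET sugar transporter, had 132, 99.4, 162 and 89.6 normalized counts under ad libitum feeding and 68.6, 117, 74.1, 93.95 and 82.3 under CR. The interval of its log2 fold change was -0.93 to 0.03 (limma, adjusted p = 0.195), with overlapping groups. Slc2a3, the high-affinity glucose transporter GLUT3, averaged 24.01 ± 15.6 (SD, n = 4) under ad libitum feeding and 16.2 ± 5.78 (SD, n = 5) under CR and was not called (limma, adjusted p = 0.637).

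Among the 18 members of the amino acid class, 1 was called higher and 0 lower, beside 7.98% and 9.14% of all genes. The median log2 fold change was 0.46 (0.07 over all genes), and 15 of the 18 values were positive, with no such count over all genes. The called member was Slc38a2, the sodium-coupled neutral amino acid transporter SNAT2, which is known to be induced when cells are starved of amino acids. It had 176, 134, 198 and 186 normalized counts in the ad libitum mice and 229, 248, 225, 271 and 262 in the CR mice. All CR mice lay above all ad libitum mice. The means were 174 ± 27.8 (SD, n = 4) under ad libitum feeding and 247 ± 19.9 (SD, n = 5) under CR, a ratio of 1.42. The limma estimate was 0.52 on the log2 scale (SE 0.17, adjusted p = 0.0496). The exact two-sided permutation p was 0.00794, the smallest that 4 against 5 mice can give. That permutation p is not adjusted over genes and adds little to the lack of overlap, and the uncalled Slc43a1 had the same value. The call stood next to the threshold and was lost without any 1 of 8 of the 9 mice, where the highest adjusted p of limma was 0.154, and with edgeR.

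The other 17 members of the amino acid class were not called. Slc3a2, the heavy chain CD98 that brings several family 7 carriers to the cell surface, had 579.8, 503, 331 and 524 normalized counts under ad libitum feeding and 511, 347, 636, 644 and 502 under CR. Its groups overlapped throughout, and the limma interval was -0.31 to 0.55 on the log2 scale (adjusted p = 0.74). Slc7a5, the large neutral amino acid carrier LAT1 that pairs with Slc3a2, averaged 20.7 ± 9.46 (SD, n = 4) under ad libitum feeding and 32.1 ± 5.14 (SD, n = 5) under CR (limma, 0.70, adjusted p = 0.148). Slc1a5, the glutamine carrier ASCT2, averaged 112 ± 24.6 (SD, n = 4) under ad libitum feeding and 149 ± 20.4 (SD, n = 5) under CR (limma, 0.43, adjusted p = 0.157). Slc6a8, which carries creatine, was estimated at 0.92 with an adjusted p of 0.0538 by limma, just above the threshold. Slc43a1, a carrier of branched-chain amino acids, was the other amino acid carrier without overlap between the diets, at 29.6, 19.5, 20.6 and 22.4 against 34.8, 50.1, 34.7, 36.6 and 30.02 normalized counts, and was not called (limma, adjusted p = 0.0997).

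The inorganic ion carriers, 10 members, held 1 higher and 1 lower gene, both K-Cl cotransporters, which export potassium with chloride and lower cell volume. Slc12a4, the widely expressed KCC1 at chr8:105943590-105966149, had 41.3, 35.1, 32.2 and 32.8 normalized counts in the ad libitum mice and 67.7, 69.5, 51.7, 78.98 and 90.1 in the CR mice. No CR value reached down to the highest ad libitum value. The means were 35.3 ± 4.16 (SD, n = 4) under ad libitum feeding and 71.6 ± 14.2 (SD, n = 5) under CR, a ratio of 2.03. By limma the difference was 0.98 on the log2 scale (SE 0.23, adjusted p = 0.00666). Slc12a7, which encodes KCC4, had 39.5, 44.8, 68.3 and 15.5 normalized counts in the ad libitum mice and 1.93, 4.85, 5.29, 2.58 and 1.72 in the CR mice. These are 2 to 9 recovered counts per CR library against 9 to 53 per ad libitum library. The ad libitum mean was 12.8 times the CR mean, 42.03 ± 21.7 (SD, n = 4) under ad libitum feeding and 3.27 ± 1.68 (SD, n = 5) under CR. The fitted difference of Slc12a7 was -3.25 on the log2 scale (SE 0.50), given as a description with no test because the level rule was met through the ad libitum mice alone. Leaving out each mouse in turn moved the estimate of Slc12a7 between -3.65 and -2.96 and that of Slc12a4 between 0.89 and 1.09, and all these fits called Slc12a4.

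Of the other 8 ion carriers none was called. Slc4a3, the anion exchanger AE3, had 3.59, 0, 3.87 and 8.62 normalized counts under ad libitum feeding and 12.6, 11.3, 15.3, 12.9 and 12.01 under CR. The groups did not overlap, but the ad libitum values were 0 to 5 recovered counts, the level rule was met through the CR mice alone, and the gene was not called. Its relative Slc4a2 (AE2) averaged 21.3 ± 4.40 (SD, n = 4) under ad libitum feeding and 38.1 ± 8.58 (SD, n = 5) under CR (limma, 0.80, adjusted p = 0.0616). Slc20a1, a sodium-coupled phosphate carrier and the ion carrier with the most counts, had 51.2, 64.3, 125 and 87.9 normalized counts under ad libitum feeding and 63.8, 38.8, 59.98, 56.3 and 54.9 under CR. Its interval was -1.07 to 0.04 on the log2 scale (limma, adjusted p = 0.199).

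Among the 13 metal ion carriers, 2 were higher in CR and 0 lower, beside 7.98% and 9.14% of all genes. Of the 13 log2 fold changes 11 were positive, with a median of 0.54 (0.07 over all genes). The positive values were not counted over all genes, so this does not set the class apart. Both called genes belong to family 39, the ZIP carriers, which bring zinc into the cytosol from outside the cell or from organelles. All 5 members of that family had positive values. Slc39a13, or ZIP13, whose loss is known to impair connective tissue in mice and humans, had 14.4, 11.7, 16.8 and 31.03 normalized counts in the ad libitum mice and 46.4, 48.5, 35.9, 37.7 and 36.03 in the CR mice. The lowest CR mouse lay above the highest ad libitum mouse, Control 5. The means were 18.5 ± 8.63 (SD, n = 4) under ad libitum feeding and 40.9 ± 6.07 (SD, n = 5) under CR. The log2 fold change of Slc39a13 by limma was 1.19 (SE 0.30, adjusted p = 0.011). Slc39a6, or ZIP6, a carrier of the plasma membrane, had 15.3, 7.79, 15.5 and 15.5 normalized counts in the ad libitum mice and 19.3, 44.5, 29.4, 25.8 and 32.6 in the CR mice. The groups did not overlap, and Control 3 was the lowest of the ad libitum mice. CR differed from ad libitum feeding by 1.11 on the log2 scale (SE 0.34, limma, adjusted p = 0.0293), and the call was lost without Control 3, CR 2, CR 3 or CR 5, with estimates down to 0.88 and a highest adjusted p of 0.0864.

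Slc39a7 (ZIP7), which releases zinc from the endoplasmic reticulum and had the most counts of the class, had 102, 107, 129 and 94.8 normalized counts under ad libitum feeding and 149, 142, 128, 147 and 139 under CR. The ranges touched, since CR 3 lay just under Control 4, and the gene was not called (limma, 0.38, adjusted p = 0.159). Slc11a2, the iron carrier DMT1, averaged 58.97 ± 21.1 (SD, n = 4) under ad libitum feeding and 93.4 ± 12.5 (SD, n = 5) under CR and was not called either (limma, 0.73, adjusted p = 0.0646).

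Family 25, taken as the mitochondrial class by its number, mostly carries metabolites, nucleotides and phosphate across the inner mitochondrial membrane. Of its 18 members 1 was higher in CR and 1 lower, the median log2 fold change was 0.06, and 11 values were positive and 7 negative. Slc25a33, a carrier of pyrimidine nucleotides, had 45.8, 42.9, 18.04 and 51.7 normalized counts in the ad libitum mice and 57.99, 59, 84.7, 71.8 and 68.6 in the CR mice. The groups did not overlap. In the limma fit Slc25a33 changed by 0.86 on the log2 scale (SE 0.29, adjusted p = 0.0469). DESeq2 gave an adjusted p of 0.0519 for the gene, and limma lost the call in 7 of the 9 fits without 1 mouse, with a highest adjusted p of 0.158.

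The mitochondrial carriers with the most counts were not called, and their intervals bound the difference. Slc25a3, the phosphate carrier needed for ATP synthesis, had 794, 684, 746 and 934 normalized counts under ad libitum feeding and 633, 609, 797, 806 and 698 under CR. Its limma interval was -0.49 to 0.17 on the log2 scale (adjusted p = 0.547). The ADP/ATP carriers Slc25a4 and Slc25a5 had intervals of -0.21 to 0.53 and -0.27 to 0.37, and neither was called (limma, adjusted p = 0.585 and 0.853).

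**Figure D2:**
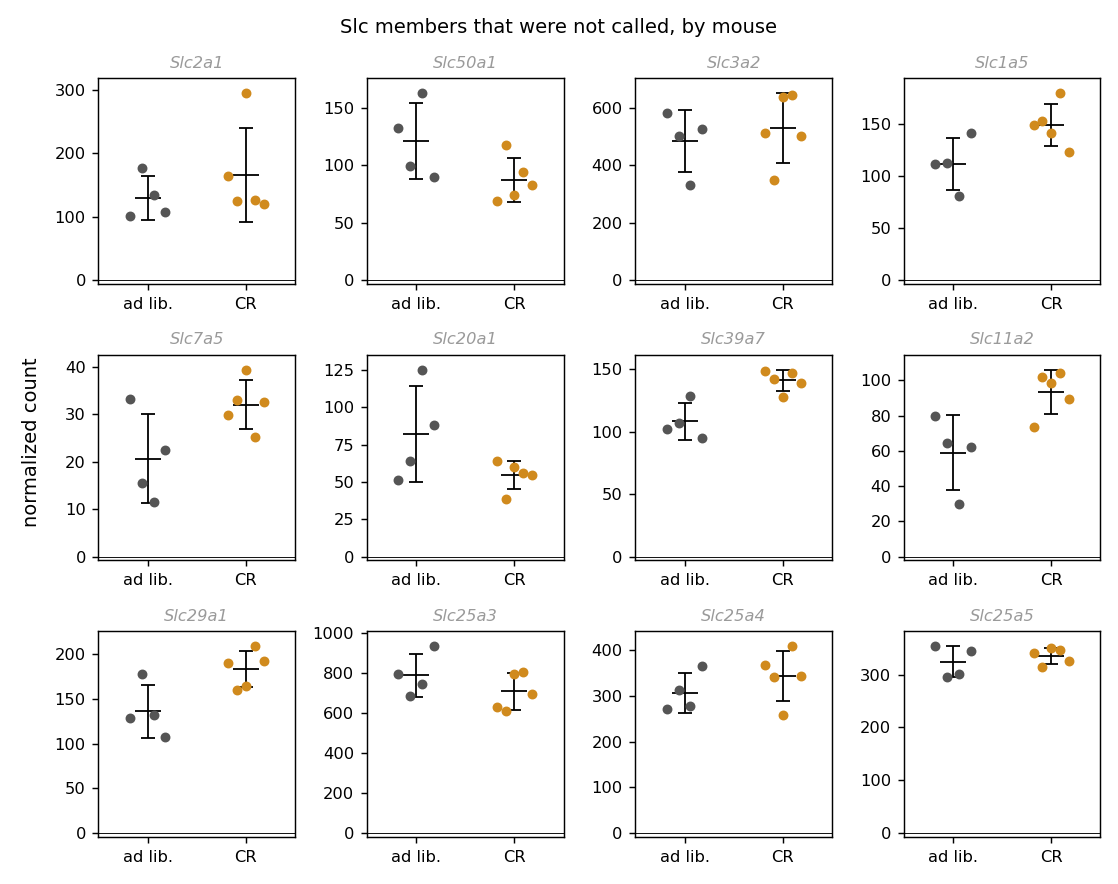
Normalized counts of 12 Slc members that were not called, by mouse (grey, 4 ad libitum mice; orange, 5 CR mice), with mean and SD as black bars. The groups overlap in all panels, and in the Slc2a1 panel the CR 3 mouse stands at 295 above the other CR mice.

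Nucleoside and nucleobase carriers numbered 3, and 2 of them were called higher in CR (beside 7.98% of all genes), with Slc29a3 counted as a description only. With 3 members the class is too small for its share to be read. Slc43a3, known as a carrier of purine nucleobases, had 260.3, 323, 236 and 517 normalized counts in the ad libitum mice and 649, 659, 838, 542 and 498 in the CR mice. Only Control 5 reached into the CR range. The means were 334 ± 128 (SD, n = 4) under ad libitum feeding and 637 ± 132 (SD, n = 5) under CR, a ratio of 1.91. The limma estimate was 0.98 on the log2 scale (SE 0.22, adjusted p = 0.00432). Slc29a3, which lets nucleosides out of lysosomes, had 6.28, 1.95, 3.87 and 1.72 normalized counts in the ad libitum mice and 22.2, 21.8, 18.8, 6.19 and 15.4 in the CR mice. The ad libitum values rested on 1 to 7 recovered counts and the CR values on 12 to 32, and CR 4 lay just under Control 2. The fitted difference of Slc29a3 was 2.01 on the log2 scale (SE 0.54), given as a description with no test because the level rule was met through the CR mice alone. Leaving out each mouse in turn moved the estimate of Slc29a3 between 1.81 and 2.31. Slc29a1, the plasma membrane nucleoside carrier ENT1, averaged 136 ± 29.6 (SD, n = 4) under ad libitum feeding and 183 ± 20.3 (SD, n = 5) under CR and was not called (limma, 0.44, adjusted p = 0.121).

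Family 35 carries nucleotide sugars into the Golgi apparatus and the endoplasmic reticulum, where they serve glycosylation, and several of its members have no known substrate. Among 9 members 1 was higher in CR and 0 lower. Slc35e4 had 16.2, 5.85, 10.3 and 22.4 normalized counts in the ad libitum mice and 42.5, 32.3, 35.3, 26.3 and 44.6 in the CR mice, with no overlap. The means were 13.7 ± 7.19 (SD, n = 4) under ad libitum feeding and 36.2 ± 7.48 (SD, n = 5) under CR, a ratio of 2.65. By limma the difference was 1.46 on the log2 scale (SE 0.36, adjusted p = 0.00808). Slc35f5, the family member with the most counts, had 51.2, 37.02, 45.1 and 37.9 normalized counts under ad libitum feeding and 51.2, 75.2, 78.8, 78.98 and 55.8 under CR, where the lowest CR mouse lay at the level of the highest ad libitum mouse. It was not called (limma, 0.64, adjusted p = 0.0671).

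Carriers of organic anions, monocarboxylates and related solutes numbered 8, with 1 higher and 1 lower. Slc10a6, a sodium-dependent carrier of sulfated steroids at chr5:103605711-103629403, had 232, 288, 231 and 333 normalized counts in the ad libitum mice and 471, 531, 472, 394 and 399 in the CR mice. Every CR mouse lay above every ad libitum mouse. The means were 271 ± 49.1 (SD, n = 4) under ad libitum feeding and 453 ± 57.3 (SD, n = 5) under CR, a ratio of 1.67. The log2 fold change of Slc10a6 by limma was 0.75 (SE 0.17, adjusted p = 0.00523), and the call held in all 9 fits without 1 mouse, with estimates of 0.68 to 0.85. Slc17a9, the carrier that loads ATP into secretory vesicles, had 12.6, 19.5, 54.1 and 17.2 normalized counts in the ad libitum mice and 0, 4.85, 1.18, 2.58 and 0 in the CR mice. It was listed at 0 in CR 1 and CR 5 and rested on at most 6 recovered counts in a CR library, against 10 to 42 in an ad libitum library. The ad libitum mean was 15.01 times the CR mean, and Control 4 stood above the other 3 ad libitum mice. The fitted difference of Slc17a9 was -3.42 on the log2 scale (SE 0.73), given as a description with no test because the level rule was met through the ad libitum mice alone, and it depends on the pseudocount because of the zeros. The gene overlaps the long noncoding Gm30455 over 2702 bases, whose reads may not be separable.

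The vitamin, choline and heme carriers, 6 members, had 1 lower gene and no higher one. Slc44a2, a choline-like transporter, had 86.2, 66.2, 117 and 29.3 normalized counts in the ad libitum mice and 31.9, 19.4, 21.8, 22.2 and 37.7 in the CR mice. Control 5 lay within the CR range. CR differed from ad libitum feeding by -1.34 on the log2 scale (SE 0.35, limma, adjusted p = 0.0116). Without Control 4 the estimate was -1.07 and the call was lost (limma, adjusted p = 0.0538). Its relative Slc44a1, the main choline carrier of the family, averaged 4.54 ± 6.26 (SD, n = 4) under ad libitum feeding and 13.5 ± 7.29 (SD, n = 5) under CR and was not called (limma, 1.90, adjusted p = 0.0803).

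The 5 members classed as no carriers held 2 lower genes, with Slc2a4rg-ps counted as a description only. Slc9a3r1 encodes NHERF1, a scaffold that ties membrane proteins to the actin cytoskeleton, and had 58.3, 48.7, 175 and 82.8 normalized counts in the ad libitum mice and 28.99, 45.3, 29.4, 22.2 and 28.3 in the CR mice. All CR mice lay below all ad libitum mice. In the limma fit Slc9a3r1 changed by -1.39 on the log2 scale (SE 0.33, adjusted p = 0.00659). Slc2a4rg-ps, annotated as a pseudogene, had 24.2, 27.3, 69.6 and 22.4 normalized counts in the ad libitum mice and 10.6, 6.47, 3.53, 9.81 and 3.43 in the CR mice, again without overlap. The fitted difference of Slc2a4rg-ps was -2.20 on the log2 scale (SE 0.45), given as a description with no test. The gene reached 10 normalized counts in all 4 ad libitum libraries but in 1 CR library, so the level rule rested on the ad libitum mice. Its 3347 annotated bases lie wholly in Zbtb46, a gene that was also in the table, and the strand setting of the counting is not given in the sources used here, so reads of both genes may not be separable.

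**Figure D3:**
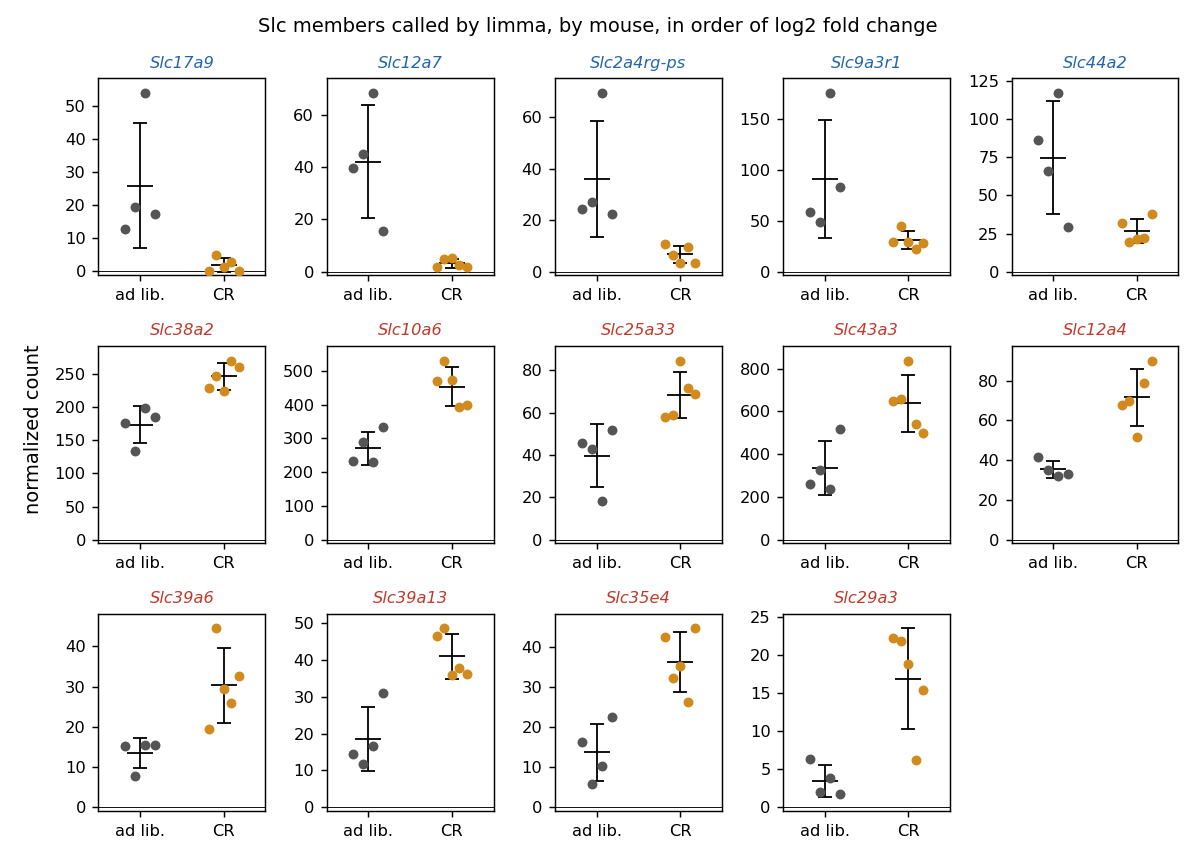
Normalized counts of 14 called Slc members by mouse (grey, 4 ad libitum mice; orange, 5 CR mice), in order of log2 fold change, with mean and SD as black bars. The 5 lower members have blue titles and the 9 higher ones red titles, and Control 4, the third grey point, is the highest mouse in each of the 5 lower panels.

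The 5 lower members Slc12a7, Slc17a9, Slc2a4rg-ps, Slc9a3r1 and Slc44a2 all had their highest value in Control 4, and 3 of the 5 had their lowest ad libitum value in Control 5. Of the ad libitum libraries, Control 4 also had the highest sum of the T cell markers (2897 normalized counts) and the lowest sum of the fibroblast markers (10650), and Control 5 the lowest T cell sum (1691) and the highest fibroblast sum (19122). Without Control 4 limma called 4 of the 97 members lower, in place of 6, and 501 of all genes lower, in place of 623. The mast cell markers summed to 630, 512, 427 and 345 normalized counts in Control 2 to 5, so their highest sum was in Control 2. The part of T cells and of mast cells in the lower members was not tested.

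The higher members moved with the scaling of the libraries. The libraries were also scaled to the 20 fibroblast markers, by the median log ratio of the markers to their own means over the libraries. Under this scaling the median change over all genes (log2) went from 0.07 to -0.26 and that of the members from 0.26 to -0.08. Limma then called 0 members higher and the same 6 lower, so that 100% of the called members were lower, in place of 40%. Over all 6815 genes the same scaling took the higher calls from 544 to 103 and the lower calls from 623 to 801, so the shift was not particular to the members. Slc10a6 was at 0.41 under this scaling (adjusted p = 0.287), Slc12a4 at 0.65 (0.169) and Slc43a3 at 0.63 (0.104). With upper quartile scaling 13 members were higher and 6 lower (31.6% lower), and with library totals 7 and 6 (46.2% lower). Over all genes these scalings gave 631 higher and 587 lower, and 414 and 699. DESeq2 on the recovered counts called 8 higher and 6 lower, and edgeR 7 and 6. The part of the fibroblast content in the higher members was not tested.

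**Figure D4:**
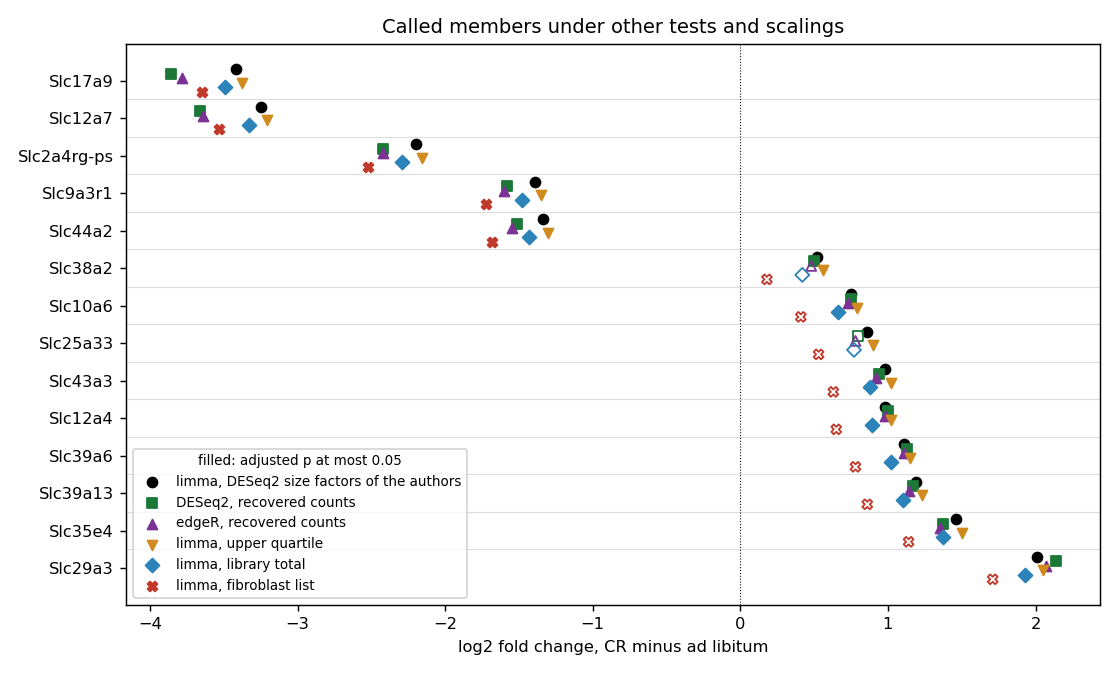
Log2 fold change (CR minus ad libitum) of 14 called members under 6 tests and scalings, with filled symbols where the adjusted p was at most 0.05. The 5 lower members are filled under all of them, and the 9 higher ones are open under scaling to the fibroblast markers (red crosses). The calls of Slc12a7, Slc17a9, Slc29a3 and Slc2a4rg-ps are a description. Slc12a7, Slc17a9 and Slc29a3 met the level rule through a single diet, and Slc2a4rg-ps met it with 4 ad libitum libraries and 1 CR library.

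A list of 23 genes that act with carriers or set their level was read in the same fit. Of these 22 were in the table and 17 were tested, with 1 higher, 2 lower and a median log2 fold change of -0.01. Atf4, the transcription factor of the amino acid and stress response that drives several amino acid carriers, averaged 1008 ± 137 normalized counts (SD, n = 4) under ad libitum feeding and 1499 ± 119 (SD, n = 5) under CR (limma, 0.58, adjusted p = 0.0113). It was not called under scaling to the fibroblast markers. Emb, the embigin chaperone of monocarboxylate carriers, averaged 88.4 ± 40.7 and 16.5 ± 7.44 (limma, -2.36, adjusted p = 0.000149). Atp1b3, a beta subunit of the sodium pump that builds the gradient sodium-coupled carriers use, averaged 321 ± 32.2 and 158 ± 7.13 (limma, -1.02, adjusted p = 0.000225). Basigin (Bsg), the other chaperone of monocarboxylate carriers, averaged 300 ± 28.3 and 367 ± 61.4 (limma, adjusted p = 0.286), and Txnip, which restrains glucose uptake, averaged 668 ± 91.7 and 718 ± 169 (limma, adjusted p = 0.826).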

How the data were processed

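Poly(A) RNA of sorted non-epithelial mammary cells was measured in 9 libraries, 1 per mouse. Per the labels and the methods of the study, the authors trimmed reads with cutadapt, aligned them to mm10 with STAR, counted molecules at the 3′ ends of genes with HTSeq and divided the counts by DESeq2 size factors. Tool versions were not given in the sources used here. Deposited by the authors was a normalized signal per gene, called normalized count here, for 11063 genes. Whole counts were recovered by dividing by the smallest step of each library (100% of values above 0 came out whole, tolerance 0.0055 normalized counts), with medians of 480190 per ad libitum and 974109 per CR library. No pair of libraries was a duplicate.

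Genes with at least 10 normalized counts in at least 4 libraries (6815) were compared with limma 3.58.1 (trend) in R 4.3.3 on log2(normalized count + 1) over all 9 libraries, with Benjamini-Hochberg adjustment over all of them and calls at an adjusted p of at most 0.05. Fold changes are on that scale, which understates those of low genes, and ratios are of mean normalized counts. Intervals are 95% intervals of that fit. The exact permutation test was two-sided. DESeq2 1.42.0, edgeR 4.0.16, other scalings, pseudocounts, filters, a replicate block and leaving out each mouse were the alternatives. Replicate numbers did not pair the mice.

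Members, transported classes and gene lists were chosen with earlier results of these data known. Named were the called members, the member of each class with the smallest p and with the most counts, those that met the level rule through 1 diet, those nearest to it, and called genes of the lists of other transporters and partners. Slc2a3, Slc7a5, Slc1a5, Slc6a8, Slc43a1, Slc4a2, Slc11a2, Slc25a4, Slc25a5, Slc29a1, Slc44a1, Bsg and Txnip were added after their values had been seen, for their place in the biology. Slc4a1ap was set among the non-carriers after the table had been seen. Locations and promoter windows are from RefSeq on GRCm38.p6. Some Slc rows were not analysed here, and some measured members, 1 of them called lower, are counted but not reported here.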

Additional observations from a re-analysis of the deposited data

Results flagged for a closer look

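Over the 24 members named by rule, 48 groups of 4 or 5 mice were tested for a mouse far from the rest, and 4 were picked out. Chance picks out about 1 in 20 groups. Slc17a9 was at 54.1 normalized counts in Control 4, beside 12.6 to 19.5 in the other 3 ad libitum mice. Slc2a4rg-ps was at 69.6 in Control 4, beside 22.4 to 27.3. Slc2a1 was at 295 normalized counts in CR 3, beside 121 to 164 in the other 4 CR mice. Slc39a6 was at 7.79 in Control 3, the shallowest library, beside 15.3 to 15.5 in the other 3 ad libitum mice. Both of the Control 4 values belong to members called lower in CR.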

How the results depend on the processing

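Of the 15 called members, 4 (Slc12a7, Slc17a9, Slc2a4rg-ps and Slc9a3r1) kept their call under all settings that tested them. For Slc12a7 and Slc17a9 this is a description and no support, because they met the level rule through the ad libitum mice alone. The same holds for Slc2a4rg-ps, which reached 10 normalized counts in 4 ad libitum libraries and 1 CR library. The filter of 30 normalized counts left out Slc12a7, Slc17a9 and Slc2a4rg-ps and so tested Slc9a3r1 alone of the 4. Of the 15, 9 kept the call in all fits without 1 mouse. Over the 24 named members, 393 of 448 single results kept direction and side of the threshold, 47 lost the call, 5 gained it and 3 reversed. The reversed ones were Slc2a1 under fibroblast list scaling (-0.04) and Slc3a2 under that scaling (-0.22) and without Control 4 (fits without 1 mouse -0.05 to 0.26). Fibroblast list scaling left 0 members higher, with 0 amino acid, ion, metal ion and mitochondrial carriers among them. A filter of 30 normalized counts tested 48 members and called 10 higher and 2 lower, with 2 amino acid, 2 ion and 1 metal ion carriers higher and 0 ion and 0 mitochondrial carriers lower. The amino acid carrier called higher was lost (0) with edgeR, library totals, no filter, the fold and count criteria (1.5-fold and 30 normalized counts) and the replicate block, and there were 2 with upper quartile scaling and with a pseudocount of 5. Ion carriers called higher numbered 4 with upper quartile scaling and 2 with a pseudocount of 5 and with no filter. The mitochondrial carrier called higher was lost (0) with DESeq2, edgeR, library totals and the replicate block. Without 1 mouse, 6 to 12 members were higher and 4 to 6 lower, with 0 to 1 amino acid, 1 to 3 ion, 1 to 3 metal ion and 0 to 1 mitochondrial carriers higher and 0 to 1 mitochondrial carriers lower. The amino acid carrier called without Control 2, Control 5, CR 2 or CR 5 was not Slc38a2, which kept its call only without Control 4. The causes of these changes were not tested. Samples of the same number correlated at -0.07 to 0.04 in their deviations, so they share only a number, and the replicate block over Control 2 to 5 and CR 2 to 5 gave 6 members higher and 6 lower. Depth limited members near 10 normalized counts most, and depth and diet cannot be told apart because the ad libitum libraries were mostly the shallower ones.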

Other observations

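Carriers and channels outside the Slc families were read in the same limma fit. Of 58 such genes 42 were in the table and 24 were tested, with 3 higher in CR, 2 lower and a median log2 fold change of 0.14. Slco2a1, a prostaglandin carrier, averaged 13.99 ± 5.98 and 38.1 ± 20.1 normalized counts (SD, n = 4 ad libitum and n = 5 CR mice) (limma, 1.31, adjusted p = 0.0328). The endolysosomal cation channels Mcoln2 (7.83 ± 4.67 and 22.2 ± 6.91, limma, 1.54, adjusted p = 0.0329) and Tpcn2 (9.45 ± 3.66 and 20.7 ± 2.70, limma, 1.11, adjusted p = 0.0444) were higher too. Abca7, a lipid exporter of the ABC family, averaged 63.97 ± 38.3 and 18.6 ± 5.88 (limma, -1.62, adjusted p = 0.00266). Spns1, which moves lysophospholipids out of lysosomes, averaged 71.2 ± 16.2 and 34.7 ± 8.80 (limma, -1.02, adjusted p = 0.0102). Under scaling to the fibroblast markers 0 of the 24 were higher and 2 were lower.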
